A study of Mus musculus with 4 samples.

Results

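ITAM adaptors and the proximal signalling proteins of natural killer (NK) cells are described here by the accessible chromatin around 10 genes: Tyrobp, Hcst, Fcer1g, Cd247, Syk, Zap70, Lcp2, Vav1, Plcg2 and Ptpn6. A region was a member when the protein-coding gene whose span lay closest to it, in RefSeq's GRCm38.p6 annotation, was one of the 10. Ties were settled by the nearer gene end. This gave 116 of the 91266 accessible regions of the series. The regions come from ATAC-seq, which marks open chromatin by where a transposase can reach the DNA. The cells were wild-type C57BL/6 splenic NK cells cultured for 72 h in a low dose (LD) or a high dose (HD) of IL-15, the interleukin that sustains NK cells, with 2 biological replicates per dose. The doses are not given as concentrations, and no untreated group was analysed here.

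The deposited tables hold the positions and widths of all regions and 2 lists by the authors of differentially accessible regions, up and down. They give neither values of single samples nor fold changes or p-values. Depth is therefore unknown, no spread between replicates could be measured, and no test between the doses was made. The dose that served as the reference is not given in the sources used here, so the lists are called up and down with no dose attached. Of the marker genes fixed for the label, 9 of the 10 NK genes have a start site in the RefSeq promoter table, and in all 9 at least 1 of these sites lay inside an accessible region. Of the markers of other cells, a start site inside a region was found for 1 of 5 T cell genes in the table (Cd5, and not Cd3e, Cd3d, Cd3g or Cd8a) and for 0 of 3 B cell genes. It was found for 2 of 3 myeloid genes (Itgam and Cebpa) and for 2 of 3 genes of other innate lymphoid cells (Il7r and Gata3). Cd28, a T cell gene with no start site matched, was nearest to 20 regions, 1 of them up and 3 down. The part of other cells in the results was not tested.

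Many activating NK receptors have no signalling tail of their own and pair in the membrane with adaptors. Tyrobp (DAP12), Fcer1g (the Fc receptor gamma chain) and Cd247 (CD3 zeta) carry immunoreceptor tyrosine-based activation motifs (ITAMs), which Src-family kinases phosphorylate and which then bind the kinases Syk and ZAP-70. Hcst (DAP10) carries a different motif and couples the receptor NKG2D to phosphatidylinositol 3-kinase and Vav1. Lcp2 (SLP-76) is the scaffold that brings together Vav1, a guanine nucleotide exchange factor, and phospholipase C gamma, one form of which is encoded by Plcg2. Ptpn6 encodes SHP-1, the phosphatase recruited by inhibitory receptors, which opposes this signalling.

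The member genes lie on 7 chromosomes, and all but Tyrobp, 9 of the 10, matched the RefSeq promoter table by symbol, with 12 start sites. Of these, 9 sites, belonging to 8 genes, lay inside an accessible region (75.0%), against 39.8% of all 32851 start sites in the table. Moving every site by 100 kb to higher or lower coordinates left 3.07% and 3.06% inside a region. The sequences below are the 250 bases before a start site, from RefSeq (GRCm38.p6), 5′ to 3′ in the gene's sense. They are shown because 6 lie before start sites inside accessible regions, those of 3 adaptors, a kinase, the scaffold and the lipase. The last lies before the start of Ptpn6, the gene of the 9 whose start lay outside all regions. Capitals mark AGGAAG, read on either strand, a form of the letters recognised by ETS-family factors. Other forms were not searched, so unmarked stretches may hold them.
Hcst, minus strand, chr7:30419855-30420104: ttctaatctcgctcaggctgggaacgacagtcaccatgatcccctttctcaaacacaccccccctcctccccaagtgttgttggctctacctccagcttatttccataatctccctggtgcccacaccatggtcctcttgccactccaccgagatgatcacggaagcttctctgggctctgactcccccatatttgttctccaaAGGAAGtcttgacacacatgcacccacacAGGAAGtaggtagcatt
Fcer1g, minus strand, chr1:171234350-171234599: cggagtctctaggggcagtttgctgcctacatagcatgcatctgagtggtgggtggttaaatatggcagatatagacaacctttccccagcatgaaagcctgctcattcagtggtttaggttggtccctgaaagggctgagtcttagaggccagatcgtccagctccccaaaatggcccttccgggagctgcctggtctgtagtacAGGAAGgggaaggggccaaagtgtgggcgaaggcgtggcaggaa
Cd247, plus strand, chr1:165788431-165788680: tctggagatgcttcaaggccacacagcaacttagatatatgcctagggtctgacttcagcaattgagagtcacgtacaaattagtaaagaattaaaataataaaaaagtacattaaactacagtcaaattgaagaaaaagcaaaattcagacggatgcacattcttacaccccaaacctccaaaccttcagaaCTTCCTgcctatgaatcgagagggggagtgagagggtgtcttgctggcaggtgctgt
Zap70, plus strand, chr1:36761548-36761797: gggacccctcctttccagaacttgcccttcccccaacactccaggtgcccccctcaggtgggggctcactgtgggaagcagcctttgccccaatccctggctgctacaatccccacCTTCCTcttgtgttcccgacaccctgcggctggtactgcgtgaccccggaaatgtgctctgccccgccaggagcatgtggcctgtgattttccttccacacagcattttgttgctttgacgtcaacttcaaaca
Lcp2, plus strand, chr11:34046678-34046927: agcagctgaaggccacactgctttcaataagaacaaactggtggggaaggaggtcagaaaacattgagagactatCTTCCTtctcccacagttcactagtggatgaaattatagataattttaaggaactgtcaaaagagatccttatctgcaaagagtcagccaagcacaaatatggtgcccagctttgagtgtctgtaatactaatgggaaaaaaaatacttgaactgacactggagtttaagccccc
Plcg2, plus strand, chr8:117498025-117498274: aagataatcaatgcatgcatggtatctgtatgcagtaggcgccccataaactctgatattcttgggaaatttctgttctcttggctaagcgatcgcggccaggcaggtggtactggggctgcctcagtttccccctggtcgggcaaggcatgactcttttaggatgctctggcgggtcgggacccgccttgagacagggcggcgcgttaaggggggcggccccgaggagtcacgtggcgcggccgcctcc
Ptpn6, minus strand, chr6:124738710-124738959: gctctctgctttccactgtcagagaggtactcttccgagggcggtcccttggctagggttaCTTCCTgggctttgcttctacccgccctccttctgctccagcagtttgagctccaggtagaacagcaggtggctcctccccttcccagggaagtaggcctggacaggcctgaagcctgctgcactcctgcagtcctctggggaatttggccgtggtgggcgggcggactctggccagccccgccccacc

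The ETS letters occurred in 8 of the 12 member windows and in 7 of the 9 whose start lay inside a region. Over the whole table, 29.5% of windows held them, and 28.3% of those with an accessible start. Hcst held 2 matches, as did the second Zap70 window. Fcer1g, Cd247, Lcp2, Vav1, Ptpn6 and the outermost Zap70 window held 1 each. Neither Syk window nor the Plcg2 window held a match. A start inside a region does not place the whole window inside it, and these counts cover whole windows. The region over the Lcp2 start covered only the last 68 bases of its window, and the match lay before that region. Of the 2 matches in the second Zap70 window, the earlier also lay before its region. The other matches in windows with an accessible start lay inside the region over that start. The RUNX letters TGTGGT, on either strand, were in 1 of the 12 windows, against 14.0% of all windows. The T-box letters GGTGTG, on either strand, were in 4 of 12, against 16.3%. The STAT letters TTCNNNGAA, which read the same on both strands, were in 0 of 12, against 7.02%. Each motif was searched separately, so matches of different motifs may overlap. A match describes letters in a window and is not a measured binding site.

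The windows also differed in base composition. Plcg2 held 17 CpG dinucleotides and the accessible Syk window 27, and these were the 2 windows richest in CpG among the members. Lcp2 held 0, Cd247 3, Hcst 4 and Fcer1g 5. The median was 5.5 over the 12 windows and 6 over all windows. Across the table, 36.1% of start sites in windows with at most 27 CpG lay inside a region, against 85.4% of those with more. The cut of 27 is the highest count among the members. It takes in 30352 of the 32851 windows, so the 36.1% is not matched to the members in CpG.

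Across the 116 regions, the authors' lists held 3 down regions and 0 up regions. Each down region had a different gene: the adaptor Tyrobp, the kinase Syk and the lipase Plcg2. The 3 are 2.59% of the member regions (95% Wilson interval 0.883 to 7.33%), and down regions were 1.40% of all regions. The count of 0 allows an up share of up to 2.59% (3 regions of 116), with a Wilson interval that reaches 3.21%, and up regions were 4.21% of all regions. These limits cover counting error only, treat neighbouring regions as independent, and compare lists rather than cultures. No test was made, and the interval of the down share includes the share of all regions. By gene, 3 of 10 members were nearest to a down region and 0 of 10 to an up region. Of the 16387 protein-coding genes with any region, 5.39% were nearest to a down region and 16.1% to an up region. The members had a median of 10.5 regions each, against 3 for all genes with a region, so a gene-level count gives them more chances to hold a listed region.

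**Figure D1:**
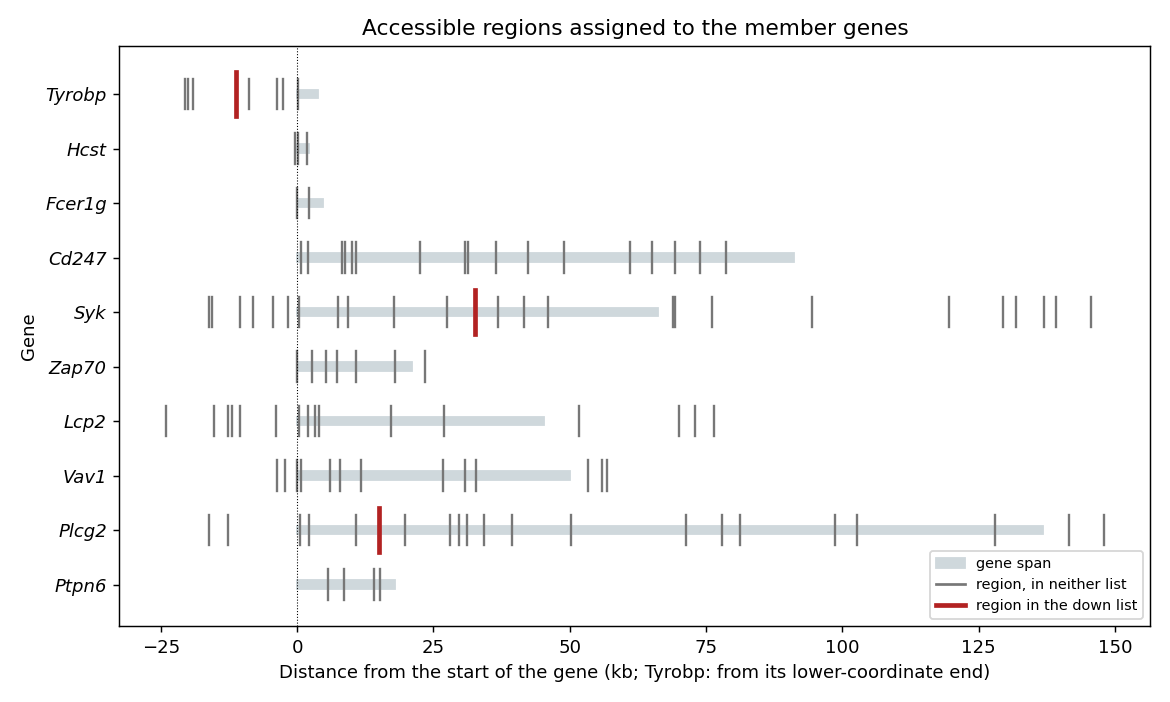
Accessible regions of the 10 genes, by distance in kb from the start of each gene (for Tyrobp, from its lower-coordinate end), with the gene's span as a pale bar and each region as a tick at its centre. The 3 down regions (tall red ticks) lie outside Tyrobp and inside Syk and Plcg2, and the other 113 regions (grey) are in neither list.

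The down region of Tyrobp was 680 bp wide, at chr7:30402199-30402878 (mm10). It lay 10.9 kb outside the lower-coordinate end of the gene, and 76.8% of all regions were narrower. It was the second widest of Tyrobp's 8 regions. The assignment depends on the gene models used: the long non-coding RNA genes Gm42376 and Gm32029 lay nearer, at 3.56 kb and 8.04 kb. With genes of every biotype allowed, 2 down regions were left to the 10 genes, those of Syk and Plcg2. Hcst, which neighbours Tyrobp, lay 14.8 kb from the same region.

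The down region of Syk was 692 bp wide, at chr13:52614847-52615538. It lay inside the gene, 32.2 kb from the start of its 66.2 kb span, and was the fifth widest of 25 regions. The down region of Plcg2, 716 bp wide at chr8:117512991-117513706, lay inside the gene, 14.7 kb from its start, and was the seventh widest of 21. Exons and introns were not annotated, and a region that overlaps a span may extend past its end. Both were counted for their gene under every rule of assignment tried.

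None of the 3 had another listed region within 100 kb. At Plcg2 the nearest listed regions were up regions, assigned to Cmip at 141 kb with 17 unlisted regions between, and to Hsd17b2 at 259 kb on the other side. At Syk they were up regions of Auh at 300 kb and of Gadd45g at 446 kb. At Tyrobp the nearer was an up region of Zbtb32 at 190 kb, with 23 unlisted regions between. Over all 1275 down regions the median distance to the next listed region was 54.6 kb, and 37.1% had no other listed region within 100 kb. The closest accessible neighbours of the 3 were unlisted and lay between 2.07 and 7.09 kb away.

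**Figure D2:**
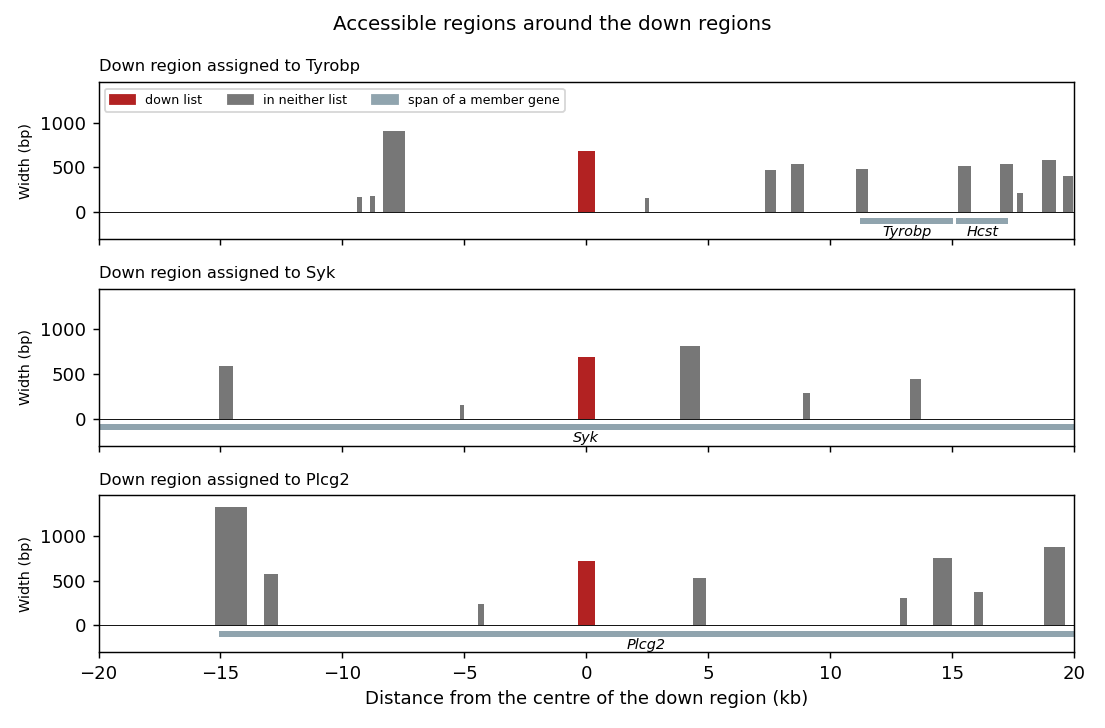
Accessible regions within 20 kb of the centre of each of the 3 down regions, drawn to scale along the horizontal axis in kb, with bar height giving region width in bp and bars below 0 giving the spans of member genes. Each down region (red, 680, 692 and 716 bp) is flanked on both sides by regions in neither list (grey).

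The 4 adaptor genes held 30 regions, 29 of them in neither list. Tyrobp and Hcst are neighbours on chromosome 7 with 129 bp between their spans, and together held 11 regions. A region of 482 bp at chr7:30413618-30414099 covered the lower-coordinate end of Tyrobp. The other 7 regions of Tyrobp all lay outside it on that same side, up to 20.5 kb away. The widest of these was 905 bp, at chr7:30394202-30395106.

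Hcst had 3 regions. The widest, of 542 bp at chr7:30419514-30420055, covered its start site and 201 of the 250 bases printed above. A second of 516 bp lay inside the gene, 71 bp from its finish and 201 bp from the end of Tyrobp. The third, of 217 bp, lay 365 bp outside. Regions covered 40.0% of the 2.14 kb span of Hcst, against 8.37% of the 3.80 kb span of Tyrobp.

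Fcer1g had 2 regions, and both overlapped its 4.78 kb span. One of 592 bp at chr1:171234030-171234621 covered the start site and the whole 250-base window, and one of 757 bp lay at chr1:171231738-171232494. Their parts within the span made up 22.5% of it.

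Cd247 had 17 regions, all overlapping its 91.2 kb span, and none was listed. The widest of all 116 member regions, 1495 bp at chr1:165779888-165781382, covered the outermost start of the span. The start site in the promoter table lies further in, and a narrower region of 351 bp at chr1:165788514-165788864 covered it. The other regions were spread to chr1:165858710, with widths from 207 to 1257 bp. One more region overlapped the span but was assigned to the neighbouring gene Pou2f1.

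The 2 kinase genes differed in how many of their regions lay outside the gene. Syk had 25 regions, more than 97.1% of genes with any region, of which 9 overlapped its span and 16 lay outside. Of the 16, 6 lay before the start and 10 beyond the finish, up to 79.0 kb away. A region of 1365 bp at chr13:52582358-52583722 covered both the outermost start of the span and the first start site in the table. The second start site lay 3236 bp from the nearest region.

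Zap70 had 7 regions, 6 of them overlapping its 21.0 kb span. The outermost start site lay in a region of 765 bp at chr1:36761314-36762078. The next lay in a region of 150 bp at chr1:36764408-36764557, the smallest width in the table. The third lay 608 bp from the nearest region. The widest Zap70 region, 1242 bp at chr1:36784553-36785794, lay 1.73 kb beyond the finish of the gene. Syk had 1 down region of 25 and Zap70 0 listed regions of 7, and the difference was not tested.

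Among the downstream proteins, Lcp2 had 16 regions, none listed. Its start lay in a region of 824 bp at chr11:34046860-34047683, which began 68 bases before the start site. Of the 16, 6 overlapped the gene, 6 lay before it and 4 beyond it. The widest measured 853 bp, at chr11:34063640-34064492, inside the gene and 16.7 kb from its start.

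Vav1 had 13 regions, none listed, with 8 overlapping the gene. The region over its start was 569 bp wide, at chr17:57278745-57279313. The widest, 984 bp at chr17:57290318-57291301, lay 11.2 kb inside.

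Plcg2 had 21 regions, 17 of them overlapping its 137 kb span. Its widest region, 1316 bp at chr8:117498131-117499446, covered the start and was in neither list, 13.5 kb from the down region. The other 19 unlisted regions ranged from 174 to 1074 bp.

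Ptpn6 had 4 regions, all inside its 18.0 kb span and none listed. No region covered the start site in the table, which lay 2699 bp from the nearest region, one assigned to Grcc10. Ptpn6 is known to have more than one promoter, used differently in epithelial and blood cells, and the table holds 1 start site for it. Its widest region measured 1180 bp at chr6:124722973-124724152, 2.27 kb from the finish of the gene, and the region nearest to the start, 805 bp wide, lay at chr6:124732691-124733495. When a region counted for every gene within 50 kb, 2 up regions were counted for Ptpn6, of 401 and 293 bp, whose nearest genes were Lpcat3 and Lrrc23. Under that rule the 10 genes had 2 up regions in place of 0, and 5 genes had a listed region in place of 3, since the down region of Tyrobp then counted for Hcst too.

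Region widths of the 10 genes ran from 150 to 1495 bp, against 150 to 3295 bp for all regions. The median was 426.5 bp (interquartile range 259 to 683 bp), against 400 bp (252 to 653 bp) for all regions, which lies within the 95% interval of the members' median, 351 to 533 bp. The 3 down regions were wider than 70.4 to 74.7% of the down list, whose median was 537 bp (interquartile range 392 to 717 bp). The 9 regions over a start site had a median of 592 bp, the other 63 that overlapped their gene 481 bp and the 44 outside 340 bp. All regions over a start site in the table had a median of 945 bp. In the tenth of all regions that is widest, from 974 bp, were 12 member regions (10.3%). None of the 9 regions over a member's start site was listed; of the 10236 regions over any start site, 1.06% were up and 0.352% down.

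**Figure D3:**
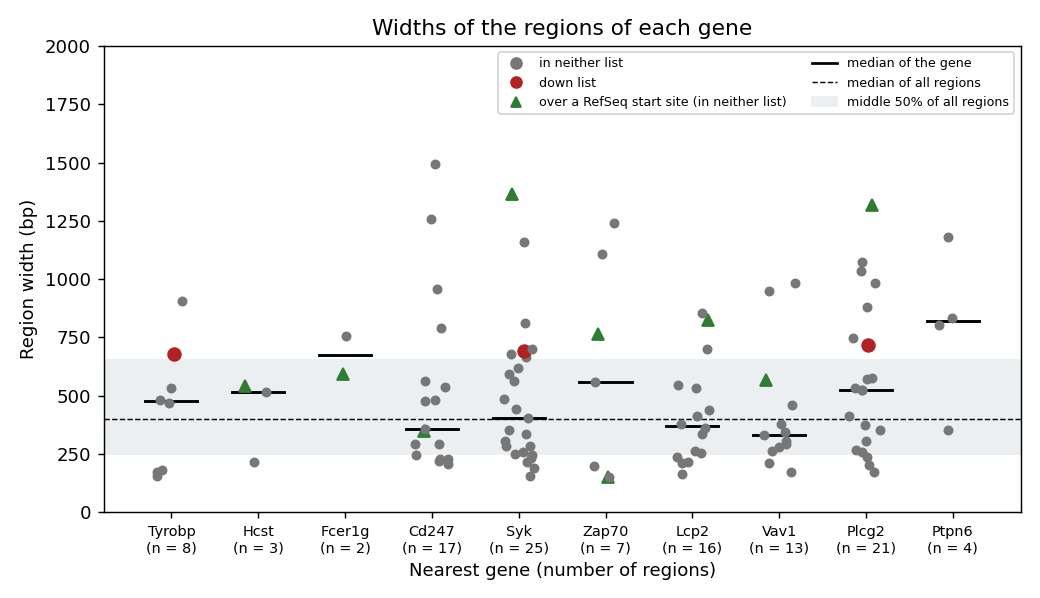
Width in bp of each of the 116 regions by nearest gene, with a black bar at each gene's median, the median of all regions as a dashed line (400 bp) and the middle 50% of all regions shaded (252 to 653 bp). Green triangles mark regions over a RefSeq start site, from 150 bp at Zap70 to 1365 bp at Syk, and the 3 red points are the down regions, all above the shaded band and within the interquartile range of the down list (392 to 717 bp).

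The density of regions over the genes was described without a test. Counting every region that overlapped a span, the members had 1.66 per 10 kb of span and all protein-coding genes 0.554. Per gene the figure ran from 1.24 at Plcg2 to 9.33 at Hcst, the shortest gene. Neighbouring regions assigned to the same member gene were a median of 3571 bp apart (106 gaps), against 5493 bp for neighbours sharing any nearest gene (74648 gaps). Of the 116 regions, 72 (62.1%) overlapped the span of the gene, against 61.1% of all regions. Within 1000 bp of an end of their gene lay 12 (10.3%), against 16.9%. Of the 9 genes with a strand in the table, 8 had a region over the start of the span and 0 over its finish. The matching shares of all genes are not given here, so this is not shown to be particular to the members.

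For context, 73 other genes of receptor signalling were examined: activating receptors, ITAM chains of other lineages, Src-family kinases, further adaptors, lipid and lipase enzymes, calcium channels, NFAT factors and negative regulators. Of these, 71 were nearest to at least 1 region, with 1220 regions in all. The lists held 27 of the 1220 as up (2.21%) and 28 as down (2.30%), beside 4.21% and 1.40% of all regions. By gene, 17 of the 71 had an up region (23.9%), 15 a down region (21.1%) and 4 both, beside 16.1% and 5.39% of all genes with a region. The list holds genes with many regions, such as the 79 of Pik3r1, against a median of 3 for all genes with a region, so these gene counts are not like for like. The number with an up region was 8 when only regions overlapping the gene counted.

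Of that list, 14 genes had at least 2 listed regions, a share not given here for all genes. Among the 14, 6 had 3 or more. The other 8 had 2 each, and Cblb and Cd226 are described from these because they come first in alphabetical order. Of the 6 not described, Klra8, Klrb1c and Lyn had 2 down regions each, Itpr1 had 2 up regions, and Itpr2 and Pik3cg had 1 of each. Down regions only were assigned to Ncr1 (4 of 11, 2 of them overlapping the gene), which encodes the receptor NKp46 that signals through Fcer1g and Cd247. The same held for Fyb (3 of 24, all overlapping the gene), an adaptor that binds SLP-76, and for Cd226 (2 of 20, both overlapping the gene), the receptor DNAM-1. Cblb, a ubiquitin ligase that restrains signalling, had 2 down of 59, of which 1 overlapped the gene and the other lay 311239 bp outside it. Fyn, a Src-family kinase, had 4 down regions, 3 of them overlapping the gene, and 1 up region of 58.

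Up regions only were assigned to Nfatc2 (4 of 27), a calcium-dependent transcription factor, and to Vav3 (4 of 27), a relative of Vav1. Pik3r1, the regulatory subunit of phosphatidylinositol 3-kinase, had 4 up regions and 1 down region of 79. Of all regions, 4.21% were up and 1.40% down. All 4 up regions of Nfatc2 overlapped the gene, 2 of the 4 at Vav3 did, and none of the 4 at Pik3r1. Those of Pik3r1 lay 47539 to 433976 bp outside the gene. Vav1 itself had 0 of 13 regions listed. The difference between Vav1 and Vav3 was not tested.

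**Figure D4:**
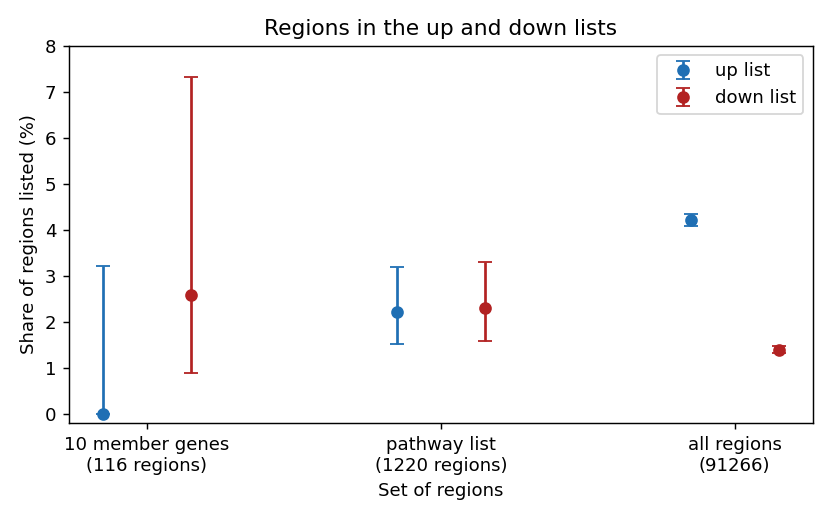
Share of regions (%) in the up list (blue) and the down list (red) for the 10 genes, the list of 73 other signalling genes and all regions, with 95% Wilson intervals that cover counting error only. For the 10 genes the up share is 0 with an interval to 3.21%, and the interval of the down share, 0.883 to 7.33%, includes the 1.40% of all regions.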

How the data were processed

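ATAC-seq regions of mouse NK cells were analysed as 3 tables of the series as a whole, deposited by the authors as positions, with widths in bp. The submitters' processing notes name the mm10 build, BWA, ArchR, MACS2 and HOMER 4.11.1, without roles. The differential test, its threshold, the reference dose and whether peaks were called on pooled samples are not given in the sources used here. Starts in the full list were raised by 1 to 1-based positions, after which all listed regions matched a region of the full list exactly. Merging and trimming of peaks by the authors would change widths and counts.

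Samples were grouped by the dose in their titles, but 0 columns of values per sample were available. The planned test between doses could not be run. Genes came from RefSeq (GRCm38.p6, 21900 protein-coding). Start sites came from its promoter table. The assignment was tested on simulated data. Python 3.11.15, pandas 2.3.3 and scipy 1.17.1 were used. All 10 genes are named, with their listed and widest regions and those over a gene end. Of the 73 other genes, 8 are described: those with the most listed regions, with ties at 2 regions settled by alphabetical order. The members and lists were chosen with earlier results of these data known. Alternatives varied the assignment, gene models, width, overlap and end distance.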

Additional observations from a re-analysis of the deposited data

How the results depend on the processing

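No paired analysis was possible because values of single samples, which the replicate numbers 1 and 2 could have paired, are not in the tables. No replicate could be left out either. In all, 38 alternatives were run for 8 results, and 11 moved. Counts were taken as moved past 1.5 times the reported value, and the median width and the share past their 95% intervals. The number of regions of the 10 genes, 116, became 85 with genes of every biotype, which is under 1.5 times, and 198 within 50 kb, 73 when the region had to overlap the gene and 61 among regions at least as wide as the median; each of these rules changes by construction which regions count. Up regions were 0 except within 50 kb, where they were 2, and the genes with a listed region then numbered 5. The down count was 2 or 3 throughout. The share of regions near a gene end was 20.7% with a distance of 3 kb. Of the 73 other genes, those with an up region numbered 17, and 11 within 10 kb, 26 within 50 kb, 8 with overlap, 11 with genes of every biotype and 11 among wide regions. Depth is unknown, so differences at regions in neither list may have gone undetected.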
